A study of Mus musculus with 6 samples.

Results

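In mouse embryonic stem (ES) cells that overexpressed Prdm14, probes of 107 genes passed from background to detection. Each such probe was above background on all 3 arrays of overexpressing cells and on none of the 3 arrays of control vector cells. For 39 of the 107 genes another probe was detected on all 3 control arrays, so the gain is that of a probe. A probe counted as above background on an array where its detection p-value, the share of 936 negative control beads that were brighter, was under 0.01. The genes were thus selected on the measured values of this same contrast, so their higher signal in overexpressing cells is a description and carries no test. Of 45281 probes on the array 132 met the rule (0.292%), while 97 met the reverse of it (0.214%), with background in overexpressing cells and detection in control cells. Of the 132 probes, 116 had 1 gene symbol in the platform annotation, 9 of these belonged to 7 genes left out by the rule, Prdm14 itself among them, and the other 107 probes named 107 protein-coding genes, out of 9166 genes named by a probe.

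The overexpressing cells carried a stable Prdm14 construct and the control cells a control vector. Both were ES cells of a 129P2 background, and the study names a Rex1-GFPd2 reporter line, in which GFP reads the naive pluripotency gene Rex1 (Zfp42), as the parent of the overexpressing lines, which it grew with serum. Total RNA was hybridised to Illumina Mouse WG-6 BeadChips, 3 arrays per group. The replicates of a group are successive passages, and no separate clones are named, so errors below cover passages only. Clonal or vector differences between the lines cannot be told apart from the effect of Prdm14. The promoter driving the construct is not stated in the sources used here.

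PRDM14 is a zinc finger protein with a PR domain that germ cell precursors need for their specification and that holds ES cells in the naive pluripotent state. It is known in ES cells mainly for silencing genes, together with Polycomb repressive complex 2, and it has also been found at genes that it raises. A gene near the detection limit of a bead array is one whose mRNA is rare in the pool, either low in every cell or present in a few cells only. In RNA from a whole culture, more cells that express a gene and more RNA per cell cannot be told apart.

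Background was brighter on the overexpression arrays, which bears on every value below. The median signal of probes that no array detected was 81.2, 73.3 and 73.6 on the overexpression arrays and 59.6, 61.3 and 62.8 on the control arrays. The lowest signal of a detected probe, here called the detection limit, was 154, 126 and 137 on the overexpression arrays and 109, 112 and 128 on the control arrays. Its mean was 1.20 times as high on the overexpression arrays, and the median signal of probes detected on all 6 arrays was 1.23 times as high, so signals of both dim and bright probes ran higher there. The rule compares each array with its own negative control beads. The log2 values below were corrected for background and brought to a common distribution with neqc (limma), and log2 differences are overexpression minus control on that scale. The part of the brighter background in the gains that remain was not tested. All 8 ES cell markers were detected on all 6 arrays and none was called changed at a limma adjusted p under 0.01, though 3 had an unadjusted p under 0.05.

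On the linear scale of the deposited signals the gained probes of the 107 genes were dim in both groups. Their mean signals ran from 143 to 246 in overexpressing cells, with a median of 159, and from 77.4 to 115 in control cells, with a median of 104. The ratio of the group means was 1.33 to 2.38 with a median of 1.57. The deposited signals of the groups did not overlap for any of the 107 genes, which the rule largely fixes, since the detection limits of overexpression arrays 1 and 3 were above those of all control arrays and that of array 2 was close to the highest of them. On the neqc scale they did not overlap for 104, the exceptions being the sialyltransferase gene St3gal4, the adaptor gene Cd2ap and Rab3gap2, a regulator of Rab GTPases, while 14.6% of all named probes tested had every overexpression array above every control array. Array 1 was the highest overexpression array for 92 genes by deposited signal but for 31 after neqc, when arrays 2 and 3 were highest for 40 and 36.

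**Figure D1:**
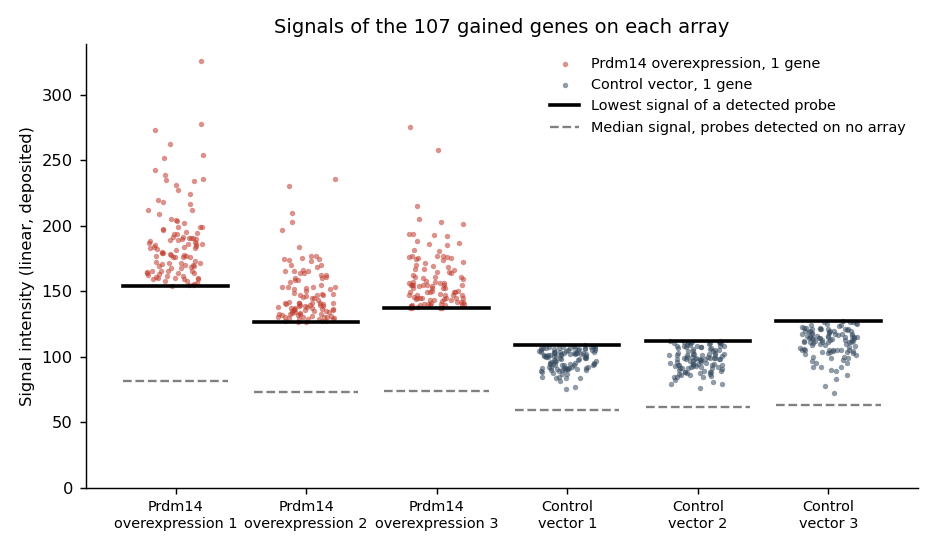
Deposited signal intensity (linear scale) of the 107 gained genes on each of the 3 overexpression and 3 control vector arrays, 1 point per gene, with the detection limit of each array (solid line) and the median of probes detected on no array (dashed line). The genes sit just above the limit on the overexpression arrays, with medians of 183, 141 and 154, and just under it on the control arrays, with medians of 99.0, 98.3 and 113, and the dashed line is higher on every overexpression array than on any control array, as is the solid line except on overexpression array 2 (126) against control array 3 (128).

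The neqc log2 differences of the 107 genes ran from 0.16 to 1.52, with a median of 0.59 and quartiles of 0.44 and 0.89, beside a median of -0.0016 over all 8529 genes tested. A difference of at least 1 was measured for 14 genes. Limma called 40 of the 107 higher at an adjusted p under 0.01, beside 1.38% of all named probes tested. The rule chose these genes on the same contrast, so nothing is read from that count. Because the control signal of each gained probe was within background, a fold is given as a lower bound. It sets the mean of the overexpression arrays over a control mean in which each control array counts with its detection limit. A gene's own control value would count where higher, but none was, since the rule keeps control signals under the limit. The control side was thus the same for all 107 genes, and the bounds rank them by their overexpression signal alone. The fold is a bound on the neqc scale only, since another background correction would give another value. The bound was at least 1.5-fold for 15 genes, at least 1.2-fold for 50 and at least 1.1-fold for 84, with a median of 1.19-fold, and it was under 1 for Cabp4, Axin1, Heca and Ik, for which no fold is given.

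**Figure D2:**
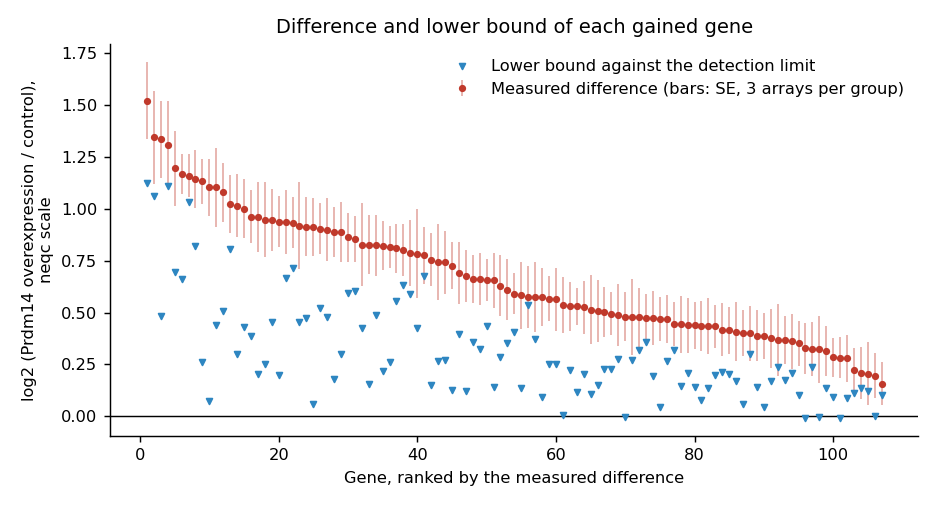
The measured log2 difference of each of the 107 gained genes (circles, Prdm14 overexpression over control on the neqc scale, bars SE, n = 3 arrays per group), ranked from largest to smallest, with the lower bound against the detection limit of the control arrays (triangles). Measured differences run from 1.52 to 0.16, and the bounds lie below them, reaching 1.12 at most and 0 or less for 4 genes.

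The largest bound was that of Slc11a1, a proton-coupled metal ion transporter of phagosomes that is known from macrophages. Its probe (ILMN_2983516) gave signals of 231, 230 and 257 with Prdm14 overexpression, compared with 101, 87.3 and 114 in control cells. The lowest overexpression array stood at 1.50 times its detection limit, the widest such margin among the 107 genes, and the difference was 1.52 ± 0.19 (SE, n = 3 per group), at least 2.18-fold on the neqc scale. A second probe for Slc11a1 (ILMN_2675811) was bright, at 3813, 2286 and 2500 in overexpressing cells, against 2526, 2329 and 2593 in control cells, with groups that overlapped and a difference of -0.05 ± 0.13. The probes for this gene therefore did not give the same account of it. The only macrophage marker of 9 that a named probe listed, Cd14, was detected on overexpression array 1 alone, with signals of 105 to 155 in overexpressing cells and 70.4 to 78.7 in control cells.

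Kpna7, an importin alpha of oocytes and early embryos that carries proteins into the nucleus, was next. Its signals were 325, 235 and 177 with Prdm14 overexpression, compared with 107, 107 and 108 in control cells. The control arrays were alike and the overexpression arrays were not, with array 3 the lowest of them on both scales, and the difference was 1.31 ± 0.21, at least 2.16-fold. Kpna7 has 1 listed probe. Emp3, which encodes a small membrane protein of the PMP22 family, had 273, 170 and 276 in overexpressing cells, against 104, 88.3 and 125 in control cells, a difference of 1.34 ± 0.22 and a bound of 2.08-fold. On control array 3 the detection p of this probe was 0.0107, so the probe just missed detection there. The other Emp3 probe was above background throughout and gave 595, 430 and 667 with Prdm14 overexpression, compared with 280, 245 and 348 in control cells, a difference of 0.75 ± 0.16 with groups that did not overlap.

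Among genes of the nervous system, Mobp (a myelin protein of oligodendrocytes) had the largest bound. Its probe gave 278, 210 and 205 in overexpressing cells, against 104, 106 and 122 in control cells, a difference of 1.16 ± 0.10 and a bound of 2.05-fold. It has 3 further probes, and each was higher on every overexpression array than on any control array, by 1.02 ± 0.15, 1.04 ± 0.11 and 1.08 ± 0.11. Pacsin1, which acts in membrane uptake at synapses, had 196, 140 and 186 with Prdm14 overexpression, compared with 91.7, 86.3 and 105 in control cells, a difference of 1.00 ± 0.14 and a bound of 1.35-fold. Its brightest other probe read 430, 394 and 364 in overexpressing cells, against 199, 219 and 223 in control cells, 0.72 ± 0.12 higher. For both genes the brighter probes thus ran in the same direction as the gained probe. Prmt8, an arginine methyltransferase of neurons that sits at the plasma membrane, had 234, 170 and 188 with Prdm14 overexpression, compared with 107, 95.3 and 120 in control cells (0.93 ± 0.12, at least 1.64-fold). Kiss1, the precursor of the kisspeptin peptides that drive the reproductive hormone axis, had 224, 175 and 175 in overexpressing cells, against 91.8, 93.0 and 105 in control cells. Its arrays were close within each group, the difference was 1.17 ± 0.10 and the bound was 1.58-fold. The opioid precursor gene Pdyn (0.74 ± 0.18), the oligodendrocyte factor gene Olig1 (0.96 ± 0.17) and Ncmap, a peripheral myelin protein gene (0.83 ± 0.20), were dimmer, with bounds of 1.20-fold, 1.15-fold and 1.34-fold. Mobp and Pacsin1 were 2 of 39 named genes on the list of neuronal and synaptic genes (5.13%, beside 1.17% of all named genes). Of 34 genes of the list that were tested, 6 were called higher and 0 lower (6 lower at an unadjusted p under 0.05), beside 1.5% of all genes called higher and 2.5% called lower, and the list's median difference was 0.05. Of 4 listed neuron markers, all were detected on all 6 arrays, 1 was called higher and 1 lower, and none is among the 107 genes. Their summed deposited signal, not corrected for background, was 3968 to 4492 in overexpressing cells and 3279 to 3912 in control cells. Most of it came from Stmn2, whose neqc difference was 0.05. Deposited signals ran higher on the overexpression arrays in general, as stated above. The part of these markers in the gains was not tested.

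**Figure D3:**
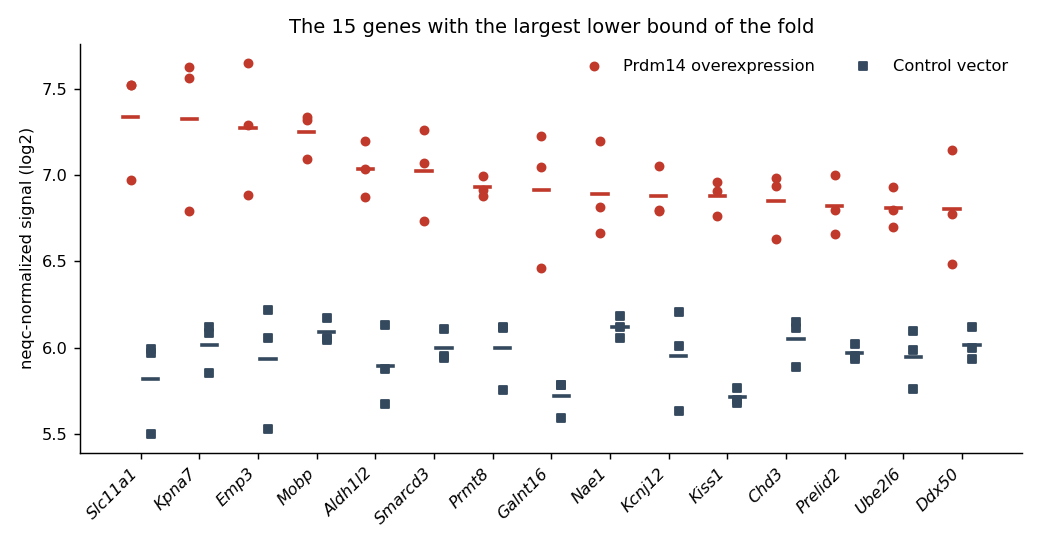
neqc-normalized log2 signals of the 15 gained genes with the largest lower bounds, with Prdm14 overexpression arrays (circles) left of control vector arrays (squares), 1 point per array and a line at each mean. No gene's groups overlap, which the choice of the genes largely fixes. The overexpression means run from 7.34 for Slc11a1 to 6.80 for Ddx50. Within a group the arrays of Kpna7 and Galnt16 spread widely while those of Kiss1 stay close.

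Regulators of chromatin and transcription formed another set of members. Smarcd3 encodes BAF60C, a subunit of the BAF nucleosome remodelling complex known from heart and muscle, and had 205, 203 and 203 with Prdm14 overexpression, compared with 107, 101 and 112 in control cells. The deposited signals were nearly equal within each group, and the difference was 1.02 ± 0.14, at least 1.75-fold. Chd3, a helicase of the NuRD corepressor complex, had 227, 177 and 165 in overexpressing cells, against 107, 99.6 and 121 in control cells (0.80 ± 0.13, at least 1.55-fold). Foxa1, a pioneer factor of endoderm that opens chromatin, had 189, 166 and 181 with Prdm14 overexpression, compared with 100, 91.9 and 111 in control cells. Its difference was 0.90 ± 0.12 and its bound 1.44-fold. For Chd3 and Foxa1, too, every overexpression array was above every control array, which the rule largely fixes for any member. Sox21, an HMG box gene, had 186, 130 and 152 in overexpressing cells, against 91.2, 84.7 and 92.1 in control cells, a difference of 0.89 ± 0.12 and a bound of 1.13-fold. Its other probe was well above background in both groups, at 1018, 1015 and 847 with Prdm14 overexpression, compared with 379, 445 and 486 in control cells, with a difference of 0.94 ± 0.14 and no overlap. Foxp4 had a smaller difference of 0.32 ± 0.12, and its other probe, at 1156, 787 and 894 in overexpressing cells, against 956, 681 and 927 in control cells, overlapped between groups. Foxa1, Sox21 and Foxp4 were 3 of 81 named genes of the transcription factor families (3.70%), of which 5 of 73 tested were called higher and 7 lower, with a median difference of 0.00. Of 230 named zinc finger genes (Zfp, Zscan and Zbtb) only Zkscan14 was a member (0.435%, beside 1.17% of all named genes). Other nuclear members were the nuclear factor I gene Nfix (0.90 ± 0.15), the zinc finger repressor gene Bcl11b (0.94 ± 0.12) and the histone H2A gene H2ac18 (0.91 ± 0.14). H2ac18 was the only member on the list of 54 histone genes, whose mRNAs are so alike between copies that a probe may read more than 1 of them.

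Transporters and channels were the lists with the most members. Of 165 named solute carriers 5 were members (3.03%), Slc11a1 above and then Slc7a4, a cationic amino acid transporter-like gene, Slc25a45 of the mitochondrial carrier family, Slc26a4 (pendrin, an anion exchanger of the inner ear and thyroid) and Slc15a4, a peptide and histidine transporter of lysosomes. Apart from Slc11a1 their differences were small, from 0.48 ± 0.12 for Slc7a4 to 0.16 ± 0.10 for Slc15a4, the smallest of all 107 genes. Among 150 solute carriers tested, 1 was called higher and 8 lower, and their median was -0.02. Of 50 named ion channel genes 4 were members (8.0%). Kcnj12, the inward rectifier potassium channel Kir2.2, had 212, 184 and 177 with Prdm14 overexpression, compared with 103, 91.6 and 124 in control cells. It was 0.93 ± 0.15 higher, at least 1.59-fold, although its detection p on control array 3 was 0.0107. The potassium channel beta subunit gene Kcnab2 (0.40 ± 0.13), the connexin gene Gja4 (0.39 ± 0.11) and the ATP-gated channel gene P2rx7 (0.21 ± 0.12) were closer to the limit, with bounds of 1.23-fold, 1.03-fold and 1.10-fold. Of 37 channel genes tested, 3 were called higher and 3 lower, with a median of 0.07.

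Among enzymes, Aldh1l2, which oxidises formyl-tetrahydrofolate in mitochondria, had 239, 197 and 185 in overexpressing cells, against 91.0, 99.0 and 120 in control cells. The Aldh1l2 difference was 1.14 ± 0.14 and the bound 1.77-fold. Galnt16, which starts mucin-type sugar chains on proteins, had 262, 143 and 201 with Prdm14 overexpression, compared with 88.4, 96.1 and 105 in control cells (1.19 ± 0.18, at least 1.62-fold), with overexpression array 2 the lowest of its group. Fmo1, a flavin monooxygenase gene, was 0.82 ± 0.15 higher with a bound of 1.40-fold, and Gsta3, a glutathione transferase gene, was 0.66 ± 0.12 higher with a bound of 1.25-fold. The other Gsta3 probe, far brighter at 3076, 2183 and 2378 in overexpressing cells, against 1286, 1503 and 1488 in control cells, was 0.60 ± 0.10 higher. Glutathione transferases of one class are close in sequence, so a probe may read more than 1 of them. The glycosyltransferase genes B3gnt3 (0.92 ± 0.21), St3gal2 (0.51 ± 0.15) and Mgat1 (0.28 ± 0.09) were members with smaller bounds.

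The ubiquitin and ubiquitin-like pathways had Nae1, a subunit of the enzyme that activates NEDD8, at 199, 165 and 215 with Prdm14 overexpression, compared with 107, 111 and 117 in control cells (0.77 ± 0.14, at least 1.60-fold). Its other probe was the brightest of all the members' further probes, at 5948, 4348 and 4603 in overexpressing cells, against 3454, 3849 and 4020 in control cells, and differed by 0.20 ± 0.09. Ube2l6, the conjugating enzyme for the interferon-induced modifier ISG15, had 212, 173 and 170 with Prdm14 overexpression, compared with 93.9, 107 and 114 in control cells (0.86 ± 0.12, at least 1.51-fold). Siah2, an E3 ligase gene outside the list for this pathway, had 209, 141 and 193 in overexpressing cells, against 91.6, 94.4 and 95.3 in control cells (1.08 ± 0.14, at least 1.42-fold). The groups did not overlap for the gained probes of Nae1, Ube2l6 or Siah2, which the rule largely fixes. Fbxw2, an F-box substrate receptor, differed by 0.35 ± 0.11. Ube2l6 and Fbxw2 were 2 of 208 named genes on the list of ubiquitin ligases and deubiquitinases (0.962%), with 3 of 200 tested called higher and 4 lower.

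RNA helicase gene Ddx50 had 252, 163 and 155 in overexpressing cells, against 102, 101 and 120 in control cells. Array 1 was well above the other overexpression arrays, the difference was 0.79 ± 0.16 and the bound 1.50-fold, and the other Ddx50 probe, at 217, 140 and 138 with Prdm14 overexpression, compared with 145, 138 and 138 in control cells, overlapped between groups. The tRNA methyltransferase gene Ftsj1 was 0.81 ± 0.12 higher (at least 1.47-fold). Spout1, which encodes a methyltransferase-like protein, had 169, 153 and 156 in overexpressing cells, against 81.2, 82.0 and 89.0 in control cells, with little spread in either group and a difference of 1.13 ± 0.11. Its bound was only 1.20-fold, since its overexpression signals were near the limit, and its other probe differed by -0.08 ± 0.12. Rbm6, an RNA-binding protein gene, had the widest spread among overexpression arrays, 0.88 on the log2 scale, with signals of 254, 145 and 142 against 106, 94.0 and 105 in control cells.

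Signalling genes on the lists were few. Il34, a ligand of the receptor CSF1R, had 195, 140 and 149 with Prdm14 overexpression, compared with 90.6, 92.1 and 101 in control cells (0.81 ± 0.10, at least 1.20-fold), and was the only member of 39 named cytokine, chemokine and receptor genes, of which 2 were called higher and 0 lower (4 lower at an unadjusted p under 0.05). Gnb4, a G protein beta subunit gene, was the only member of 64 genes of G protein signalling (0.66 ± 0.13). Ddr2, a receptor kinase for collagen, had 159, 141 and 143 in overexpressing cells, against 84.0, 75.8 and 72.5 in control cells. Its control signals were among the lowest of the 107 genes, so that a difference of 1.10 ± 0.14 went with a bound of 1.05-fold. The tetraspanin gene Cd82 (0.48 ± 0.13) and Cd2ap (0.21 ± 0.15) were 2 of 116 immune and surface genes (1.72%), of which 12 of 100 tested were called higher and 2 lower. The deposited signals of the 4 listed T cell markers, not corrected for background, summed to 637 to 730 in overexpressing cells and 413 to 477 in control cells. Of these markers 1 was detected on all 6 arrays, while Cd3d, Cd3e and Cd4 were detected on 1, 2 and 1 arrays. The part of these markers was not tested. The members Rassf2 (0.58 ± 0.16) and Rab3gap2 (0.20 ± 0.11) were 2 of 183 small GTPase genes and regulators (1.09%). No gene on the lists of 128 protein kinases, 68 extracellular matrix and protease genes or 6 genes of the two-cell-like state was a member, and the kinase genes among the members, Ddr2, Plk1, Chek2 and Taok1, were not on the kinase list.

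Members with roles in germ cells were scattered. Meioc, a regulator of meiotic prophase, had 194, 134 and 149 with Prdm14 overexpression, compared with 101, 95.3 and 115 in control cells (0.53 ± 0.12, at least 1.17-fold), and was the only member of 59 named germline and meiosis genes, of which 7 of 57 tested were called higher and 3 lower. The sperm genes Tsks (0.91 ± 0.14) and Armc2 (1.10 ± 0.19) and the zonadhesin gene Zan (0.41 ± 0.11) were members outside that list, as was Alppl2, an alkaline phosphatase gene of the early embryo (0.96 ± 0.13). Of 6 listed germ cell markers 5 were detected on all 6 arrays, 2 were called higher and none is among the 107 genes. Their summed deposited signal, not corrected for background, was 9649 to 13811 in overexpressing cells and 6420 to 7132 in control cells. Its part in these gains was not tested. In total 31 members were on at least 1 of 21 lists and 76 on none. Each list not given above had few members, beside a share of 1.17% of all named genes. Members made up 4.76% of naive pluripotency, 2.44% of nuclear transport and 1.56% of carbohydrate, amino acid and redox genes. For cytoskeleton, lipid and predicted genes the shares were 0.862%, 0.862% and 0.823%.

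The rule cuts through a continuum of signals. Of the 107 genes 51 lay within 10% of the detection limit on at least 1 array of each group, and 7 stood at least 10% above it on all overexpression arrays and at least 10% under it on all control arrays (Galnt16, Kiss1, Siah2, Tsks, Armc2, Pacsin1 and Alppl2). A detection p of 0 on all 3 overexpression arrays, with no negative control bead brighter, was recorded for 10 genes. On the control side the detection p was under 0.02 on at least 1 array for 62 genes and at least 0.05 on all 3 arrays for 4. Many members stood on the last step inside the rule, and only some are named here. Ddr2, H2ac18 and the kinesin-binding protein gene Kifbp each had a highest overexpression p of 0.00962. Ncmap, St3gal4, Pdyn and Cd82 were among others with that value. Emp3, Pde6d and Kcnj12 each had a lowest control p of 0.0107, a value shared by Plpp6, Kcnab2 and Taok1, among others. Pde6d, which carries prenylated proteins between membranes, had 243, 159 and 154 in overexpressing cells, against 107, 110 and 127 in control cells. Just outside it, Zfp810 missed on overexpression array 1 alone, where its detection p-value was 0.0107, with 153, 155 and 160 with Prdm14 overexpression, compared with 89.8, 97.4 and 127 in control cells, and Rhoc and Gm5591 missed on 1 overexpression array by the same step. Mc5r, Tsr2 and Igsf11 missed because control array 1 had a p of 0.00962. In all, 189 named probes were 1 overexpression array and 149 were 1 control array short of the rule.

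The other probes of the same genes are a view of the same RNA that the choice of members did not use, though from the same arrays. Only the 13778 of 45281 probes with 1 gene symbol in the annotation could be counted here. Of these, 12679 were detected on at least 3 arrays, beside 14604 of all probes. The named probes are thus mostly detected ones, which bears on the counts that follow. Among them, 64 of the 107 genes have a single probe and the remaining 43 have 64 further probes. None of these further probes met the rule, 52 were detected on all 6 arrays, and 39 genes had a probe detected on all 3 control arrays, so that for these genes the transcript was not at background in control cells by every probe. Over these 39 genes the brightest other probe had a median control signal of 345, and its difference was positive for 27 and negative for 12, with a median of 0.18 and a range of -0.29 (Git1) to 1.02 (Mobp), beside a median of 0.66 for the gained probes of the same genes. Limma called 4 of the 39 higher (Gsta3, Sox21, Pacsin1 and Mobp) and 0 lower, with 13 higher and 1 lower at an unadjusted p under 0.05, beside 1.38% of named probes called higher. Slc11a1, the predicted gene Gm16367 and Spout1 had gained probes with measured differences above 1 and a brighter probe with a difference below 0. For the 68 genes with no such other probe the median difference of the gained probes was 0.57. Of these 26 were called higher, beside the same 1.38% of named probes. The rule chose them on this contrast, so nothing is read from that count.

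**Figure D4:**
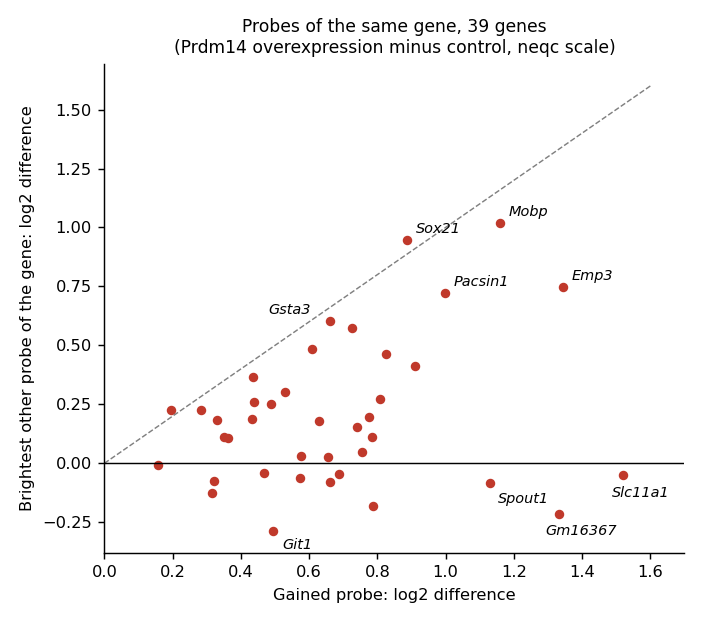
The log2 difference (Prdm14 overexpression minus control, neqc scale) of the gained probe of each of 39 genes on the horizontal axis against that of the brightest other probe of the same gene on the vertical axis, with the line of equal differences dashed. Most points lie under the line and 12 lie under 0. The horizontal values are measured differences over controls at background.

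The starts of the genes were compared as sequence. RefSeq (GRCm38.p6) gave a window of 250 bases before and 50 bases after the most upstream annotated start for 84 of the 107 genes. CpG dinucleotides mark the starts of most widely expressed genes in mammals, where they are largely free of methylation, and are sparse at many starts of tissue-restricted genes. The members had a median of 20.5 CpGs per window, beside 21 for all named genes, from which the members come. The median was 22 for genes with a probe detected on all 6 arrays and 12 for the genes lost to background (61 of 79 with a window). For all 27025 genes of the promoter table it was 7. A ratio of observed to expected CpG of at least 0.6 was found at 64.3% of the members. The share was 74.0%, 77.4%, 44.3% and 36.5% in the other sets, in the same order. Among the members, those with no other probe above background in control cells had a median of 16.5 CpGs (53.9% at a ratio of at least 0.6), and those with such a probe 23 (81.3%). These are descriptions of the sets, with no test. The starts of 4 genes with large bounds are shown because they mark the ends of that range, with each CG in capitals, 5′ to 3′ on the strand of the gene: Prmt8 at chr6:127769110-127769409 (minus strand, 43 CpGs), Smarcd3 at chr5:24601953-24602252 (minus strand, 40 CpGs), Kiss1 at chr1:133326962-133327261 (plus strand, 2 CpGs) and Kpna7 at chr5:145009587-145009886 (minus strand, 4 CpGs).
Prmt8: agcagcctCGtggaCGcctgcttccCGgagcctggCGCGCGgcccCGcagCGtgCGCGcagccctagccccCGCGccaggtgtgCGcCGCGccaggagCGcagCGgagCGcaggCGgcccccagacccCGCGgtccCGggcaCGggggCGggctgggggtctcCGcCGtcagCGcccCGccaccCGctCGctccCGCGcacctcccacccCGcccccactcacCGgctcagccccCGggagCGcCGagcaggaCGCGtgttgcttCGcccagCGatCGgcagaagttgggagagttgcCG
Smarcd3: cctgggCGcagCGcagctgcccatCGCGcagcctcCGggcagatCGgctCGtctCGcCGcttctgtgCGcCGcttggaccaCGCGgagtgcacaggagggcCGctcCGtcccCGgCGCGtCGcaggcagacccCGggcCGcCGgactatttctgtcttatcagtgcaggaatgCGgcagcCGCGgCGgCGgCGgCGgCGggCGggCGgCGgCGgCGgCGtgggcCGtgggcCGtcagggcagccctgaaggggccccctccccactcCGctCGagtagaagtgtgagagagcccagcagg
Kiss1: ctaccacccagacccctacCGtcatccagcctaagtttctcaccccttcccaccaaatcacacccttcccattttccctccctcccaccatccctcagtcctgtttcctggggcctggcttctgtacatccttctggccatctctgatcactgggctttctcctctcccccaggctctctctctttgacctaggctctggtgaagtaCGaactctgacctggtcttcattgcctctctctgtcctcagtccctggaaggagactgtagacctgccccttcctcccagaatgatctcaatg
Kpna7: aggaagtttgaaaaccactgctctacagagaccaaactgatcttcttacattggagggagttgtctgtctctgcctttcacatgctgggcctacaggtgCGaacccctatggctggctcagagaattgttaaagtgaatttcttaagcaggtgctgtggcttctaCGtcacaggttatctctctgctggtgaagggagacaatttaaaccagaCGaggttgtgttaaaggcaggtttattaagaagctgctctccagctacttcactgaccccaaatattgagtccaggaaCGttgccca

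Genes with as large a bound thus had starts of either kind, with CG in dense runs in Prmt8 and Smarcd3 and almost none in Kiss1 and Kpna7. Motifs were searched on both strands in the same windows. The letters TATAAA were found in 7 of 84 members (8.33%), beside 7.28% of all named genes and 14.2% of all promoters, and CCAAT in 25 members (29.8%), beside 40.1% and 38.0%. The E-box CACGTG was in 6 members (7.14%), beside 10.5% and 7.24%, and GGTCTCTAA, a sequence known from PRDM14 binding sites, in 1 member, Macrod1 (1.19%), beside 0.254% and 0.255%. No motif contains another. The members lay on all autosomes but 1 and on the X chromosome, most on chromosomes 11 (12 genes), 5 (11) and 1 (9), which hold 8.35%, 6.60% and 4.83% of the named genes.

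**Figure D5:**
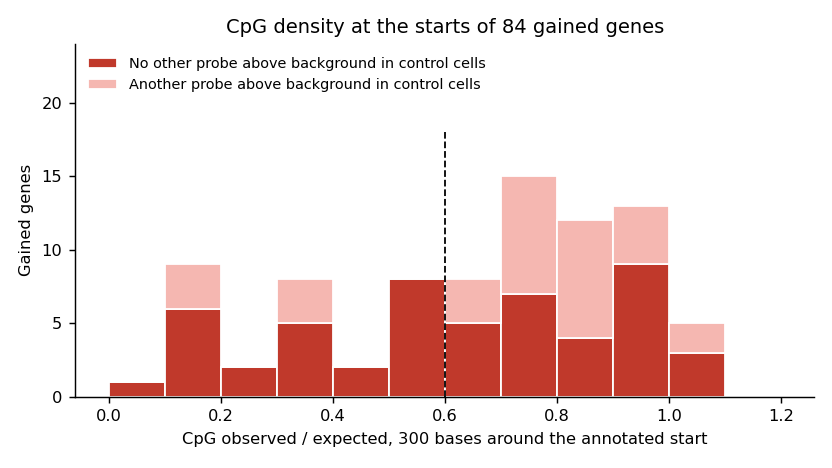
Histogram of the ratio of observed to expected CpG in windows of 300 bases around the annotated start of 84 gained genes, as the number of genes per bin of 0.1, split by whether another probe of the gene was above background on all 3 control arrays (light) or not (dark). The dashed line marks a ratio of 0.6, which 54 of the 84 genes reach, 26 of them among the 32 light and 28 among the 52 dark.

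Which genes met the rule depended on its threshold. With a detection threshold of 0.05 the rule gave 39 genes, of which 6 are among the 107, and with 0.001 it gave 57, of which 11 are. The reverse rule gave 79 genes at 0.01, 40 at 0.05 and 94 at 0.001. Which of the gained and lost sets was larger thus depended on the threshold. Keeping 0.01 for overexpressing cells and asking for 0.05 or more on the control arrays left 4 genes. Asking that no other probe of the gene was detected on all overexpression arrays left 67. With 1 array left out, 131 to 193 genes met the rule, all 107 included each time since the rule then asks less. All 107 differences stayed positive under every alternative normalization, filter and left-out array. The choice of the genes on these same arrays largely fixes this, so it carries no test. The exception was the deposited normalized values under their sample names, where 19 were negative. The names of that table and of the signal table disagree on which array is which. In the signal table the brighter Prdm14 probe (ILMN_1222112) was at 10751 or more on every overexpression array and at 855 or less on every control array. Under the names of the normalized table it read 13.57, 9.77 and 13.32 on the overexpression arrays, compared with 9.47, 13.37 and 9.62 on the control arrays (log2), so that 1 array of each group went against its label there. In the signal table Prdm14 itself thus followed the group labels on every array. Beyond that, no source used here states which naming is right, and all values above use the signal table. With each normalized column given to the signal array it correlates with best, these values gave 107 positive differences with a median of 0.17. Of the 107 genes, leaving out 1 overexpression array at a time (1, 2, then 3) called 13, 19 and 22, and leaving out 1 control array in the same order called 10, 16 and 14. In these fits 1.33% to 2.24% of named probes were called in either direction. Whichever array was left out, 5 genes were called (Slc11a1, Mobp, Kiss1, Spout1 and Ddr2). The rule chose the genes on this contrast, so nothing is read from these counts. Signals were also divided by each array's detection limit, without background correction, a scale added after the data were seen. There the median difference was 0.40 and the range 0.14 to 1.00. The rule puts every gained probe above the limit on overexpression arrays and under it on control arrays. Positive differences on this scale were therefore fixed in advance.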

How the data were processed

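The authors deposited a table of bead signal intensity per probe and array, on a linear scale without background subtraction, and beside each signal a detection p-value. A deposited table of normalized log2 values, made with lumi per the submitters' processing notes, was an alternative only, since 4 of its 6 columns best match another array of the signal table than the one named, and 2 of these are in the other group. Members were found from the detection p-values as the rule states. Signals were normalized with neqc (offset 16) and tested with lmFit and eBayes of limma 3.58.1 in R 4.3.3 on 14604 probes detected on at least 3 arrays, with Benjamini-Hochberg adjustment over all of them and a threshold of 0.01. For counts of genes the brightest tested probe stood for its gene. The procedure was tested on simulated data, with known changes placed only in probes detected on every array and brighter than the gained probes. That test therefore does not cover probes as dim as the gained ones. Same-numbered arrays of the groups deviated together (r = 0.12, 0.39 and 0.32), and a fit with replicate number as a block was an alternative. Other alternatives were the background correction, the offset, the scaling, the detection filter, the variance model, the detection threshold and leaving out each array. Genes were named from GEO's platform annotation, with symbols updated to RefSeq by gene identifier for all 107 members. The naming rule took the 15 largest bounds, up to 4 members per list, some genes at the edges of the rule, those with discordant probes and the brightest. Further members were named for their roles after their values were seen. The members, gene lists and tests were chosen with earlier results of these data known. The number of arrays limits the precision.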

Additional observations from a re-analysis of the deposited data

Results flagged for a closer look

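Of the 132 probes that met the rule, 16 had no single gene symbol in the platform annotation and entered no comparison above, although their signal was above background in overexpressing cells and at background in control cells. The one with the largest lower bound, ILMN_2432568, gave 223, 185 and 172 with Prdm14 overexpression, compared with 80.4, 76.8 and 84.8 on the control arrays. Its log2 difference was 1.64, with a bound of 1.60-fold on the neqc scale. The bounds of the 16 probes ran down to 1.05-fold. No gene is given to them here.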

How the results depend on the processing

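The 107 genes became 39 at a detection threshold of 0.05, 57 at 0.001, 4 with 0.05 or more asked of the control arrays and 67 where no other probe of the gene was detected on all overexpression arrays, and 131 to 193 without 1 array. The 79 genes lost to background became 40 at 0.05, 94 at 0.001, and 94 to 122 without 1 array. The median member difference of 0.59 was 0.35 without background correction, 0.42 with an offset of 50, 0.71 with median scaling, 0.053 and 0.17 with the normalized table under its deposited names and matched to arrays, 0.40 on the detection limit scale, 0.57 for members with no other probe above background and 0.60 to 0.64 without 1 array. The 40 members called became 4 without a detection filter, where all 45281 probes were tested, 0 and 7 with the normalized table in these forms, 26 among members with no other probe above background and 10 to 22 without 1 array. Beside the 40, 3.50% of named probes were called in either direction. That share was 0.893% without a detection filter, 0% and 4.65% with the normalized table in these forms and 1.33% to 2.24% without 1 array. Over all genes, 128 higher and 213 lower became 209 higher with median scaling (145 lower, 59.0% higher in place of 37.5%, the median gene at 0.11), 24 and 63 without a detection filter, 243 and 348 with trended robust variances, 0 and 0 under deposited names (89 and 144 at an unadjusted p under 0.05), and 34 to 74 and 88 to 149 without 1 array. The replicate block called 41 members, 35 of the 40 among them, and 171 genes higher and 271 lower. Only under deposited names did any difference turn negative, for 19 of 107 members, 8 of them among the 43 genes that the naming rule gives: Slc7a4 (-0.0072), 5730507C01Rik (-0.036), Kcnab2 (-0.027), Slc25a45 (-0.037), Foxp4 (-0.031), P2rx7 (-0.045), Fbxw2 (-0.0064) and Rab3gap2 (-0.0094). Positive differences elsewhere are largely fixed by the rule, which chose the members on these same arrays. The cause of the changes between settings was not tested, beyond fewer arrays or more probes tested where named.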
